A study of Mus musculus with 80 samples.

Results

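Vcam1, Cd5l, C1qa, C1qb, C1qc, Cd163, Adgre1 and Cd68, 8 genes known as markers of tissue macrophages, were followed in RNA of sorted mouse blood stem and progenitor cells. The members were chosen by name, with earlier results of these data known, so their counts and medians beside the background are descriptive only. They were found by symbol, all 8 of them among the 41388 genes of the age table and the 40481 genes of the genotype table. They were read in 80 libraries in 20 groups, all on the B6 background. Hematopoietic stem cells (HSC) were sequenced from embryos at E14, E16 and E18, with 3, 4 and 3 libraries. Postnatal HSC came from day of birth (P0), P7, P14 and animals 8 weeks old (Adult), with 4 libraries for each age. Hematopoietic progenitor cells (HPC) were sequenced at E16 (3 libraries), P0, P7 and Adult (4 each) and P14 (5). At P0, cells labelled Ifnar -/- (Ifnar ko) were set against wild type, with 4 and 5 HSC libraries and 4 and 4 HPC libraries. At P14, HPC labelled Ifnar +/- or Ifnar -/- were each sequenced with Flt3 +/+ or Flt3 ITD/+, with 4 libraries per group and 5 for Ifnar -/-, Flt3 ITD/+. All P14 genotype groups thus lacked at least 1 Ifnar allele. Ifnar encodes the receptor of type I interferons, and Flt3 ITD is an internal tandem duplication that leaves the growth factor receptor Flt3 active. The labels gave neither the organ nor the surface markers of the sort, and did not say whether libraries of a group came from separate animals, so p-values measure the spread between these libraries only.

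Macrophages of the fetal liver, spleen and marrow surround developing blood cells, take up dying cells and aged erythrocytes, and recycle their iron. Vcam1 lets them hold blood cells, Cd163 takes up hemoglobin bound to haptoglobin, Cd5l is a secreted protein that binds lipids and debris, and Cd68 is a glycoprotein of lysosomes. C1qa, C1qb and C1qc each encode a chain of C1q, the recognition protein of complement, and Adgre1 encodes F4/80, the classical surface marker of mouse macrophages. Vcam1 is also made by endothelial and stromal cells, and Cd68 by monocytes and other myeloid cells, so neither gene marks macrophages alone. How strictly the other members, Adgre1 among them, mark macrophages in these libraries was not tested.

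The members lie at 6 places in the mouse genome (GENCODE M21, build GRCm38). The C1q genes are neighbours on the reverse strand of chromosome 4: C1qb at chr4:136880129-136886187, C1qc at chr4:136889804-136893065 and C1qa at chr4:136895917-136898803. Vcam1 (chr3:116109949-116129688, reverse strand) and Cd5l (chr3:87357881-87371073, forward) share chromosome 3. Cd163 is at chr6:124304656-124330527 and Adgre1 at chr17:57358691-57483527, both on the forward strand, and Cd68 at chr11:69664213-69666153 on the reverse strand. RefSeq promoter sequence (GRCm38.p6) was at hand for 5 of the 8 members. The bases upstream of the start that no annotated exon covers are shown for C1qb, C1qc and Cd5l, which were lower in P0 HPC labelled Ifnar ko, and for Cd163, which was not called lower there. All are written 5′ to 3′ on the gene's strand, and capitals mark matches to the motifs searched on both strands.
C1qb, chr4:136886201-136886450: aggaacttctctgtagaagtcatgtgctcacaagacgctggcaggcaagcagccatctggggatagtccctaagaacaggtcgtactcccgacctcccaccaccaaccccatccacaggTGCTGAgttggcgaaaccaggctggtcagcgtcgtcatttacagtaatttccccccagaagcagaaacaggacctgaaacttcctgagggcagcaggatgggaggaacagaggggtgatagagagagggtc
C1qc, chr4:136893066-136893164: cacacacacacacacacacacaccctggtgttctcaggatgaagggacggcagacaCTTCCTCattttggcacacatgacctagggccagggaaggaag
Cd5l, chr3:87357631-87357880: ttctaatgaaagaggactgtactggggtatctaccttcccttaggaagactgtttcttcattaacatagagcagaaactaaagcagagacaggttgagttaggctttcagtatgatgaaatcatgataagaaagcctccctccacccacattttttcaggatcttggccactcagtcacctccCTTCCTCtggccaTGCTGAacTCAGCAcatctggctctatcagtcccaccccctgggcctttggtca
Cd163, chr6:124304401-124304650: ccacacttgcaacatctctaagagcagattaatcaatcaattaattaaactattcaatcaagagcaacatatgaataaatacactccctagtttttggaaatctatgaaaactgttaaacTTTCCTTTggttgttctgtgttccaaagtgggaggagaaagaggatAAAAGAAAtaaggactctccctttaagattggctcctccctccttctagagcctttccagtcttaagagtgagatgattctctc
The motifs were the core of interferon regulatory factors (AANNGAAA), the STAT site (TTCNNNGAA), a PU.1 site (GAGGAAG) and a MAF half-site (TGCTGA), and no match overlapped another. In C1qb the capitals mark 1 MAF half-site, 131 bases upstream of the RefSeq start. The 99 bases of C1qc hold 1 PU.1 match on the opposite strand, 194 bases upstream. In Cd5l they mark a PU.1 match at 67 bases and MAF half-sites at 54 and 46 bases on opposite strands. The interferon regulatory factor core was matched only in Cd163, at 84 and 130 bases upstream, and the STAT letters in none of the 4 windows. Such letters are common: among 32851 mouse promoters, 250 bases held AANNGAAA in 21.3%, TGCTGA in 16.1%, GAGGAAG in 10.6% and TTCNNNGAA in 7.02%, and 99 bases held GAGGAAG in 3.93%. The 250 bases of Cd68 held none of the 4 motifs.

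Depth ran from 6.95 to 25.382 M reads in the age libraries, from 11.683 to 14.72 in P0 HPC, 37.039 to 46.303 in P0 HSC and 58.4 to 92.1 in the P14 genotype libraries. Levels are given as RPKM (read numbers divided by gene length and by depth), which lets genes be compared per length, and each log2 difference is an average of its group against the other. Of 10 HSC markers, 7 to 9 were called higher in HSC than in HPC at each shared age and none lower, and 3 or 4 of 4 progenitor markers were called lower. The members were thinly read: the median library held 11 reads of C1qa, 14 of C1qc, 30 of Cd5l, 49.5 of Cd163, 66.5 of Adgre1, 87 of C1qb, 192 of Vcam1 and 1128.5 of Cd68. C1qc and Cd5l had no read in 14 of 80 libraries each, and Cd68 had reads in all 80. Intervals and bounds below cover counting error only. Because the RNA is of bulk sorted cells, more cells of a type and more RNA per cell cannot be told apart.

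In HSC, 6 of the 8 members rose between E16 and Adult and 1, Cd68, fell. At a background of 24.5% of genes called (limma, adjusted p under 0.05), their median log2 change was 2.14 against 0.02 over all genes tested. Vcam1 was 0.0171, 0.258, 0.462 and 0.167 RPKM in the E16 libraries and 11, 15.1, 11.4 and 9.57 in the Adult ones. The groups lay far apart, with every Adult library above every E16 library. The change of Vcam1 was 4.10 ± 0.454 (log2 ± SE, limma adjusted p = 9.92e-08). On the log2(RPKM + 0.5) scale used for HSC, low levels are compressed, and on reads recovered from the RPKM the edgeR change of Vcam1 was 5.75.

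**Figure D1:**
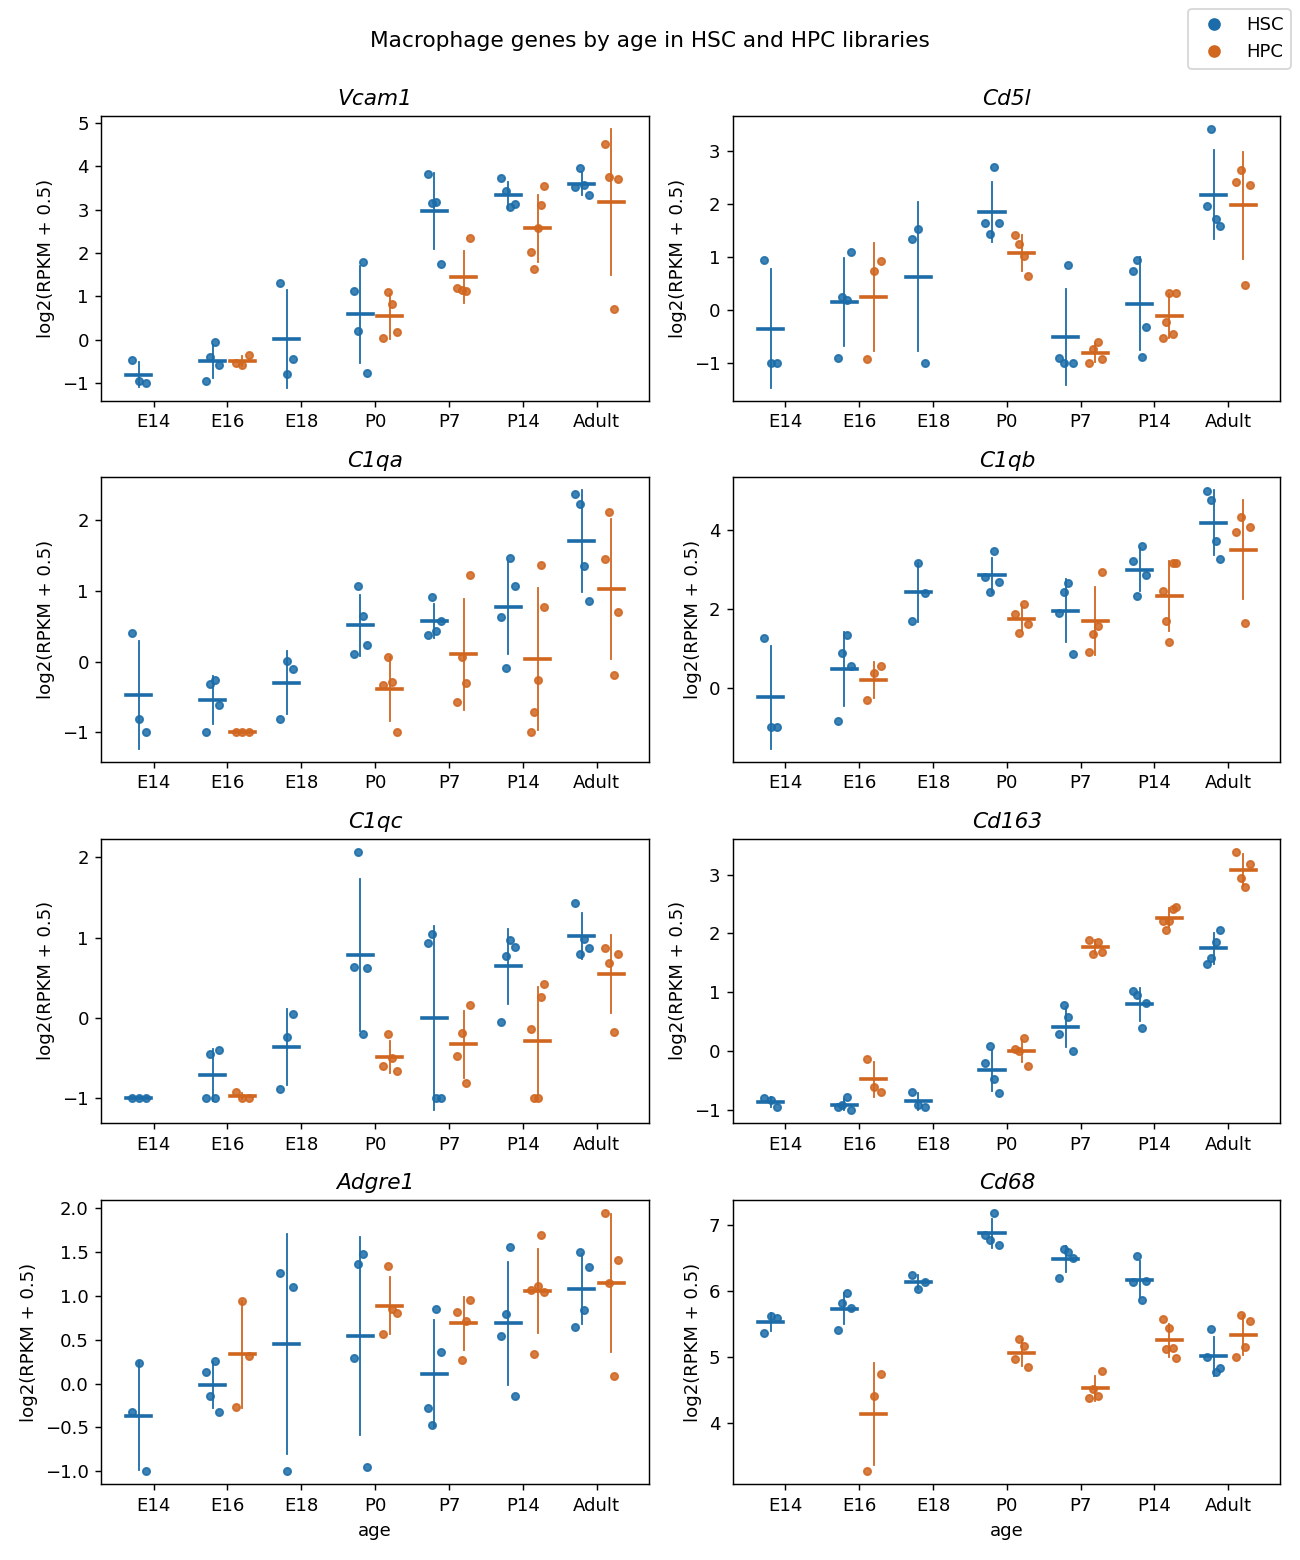
RPKM of the 8 members by age, on a log2 axis of RPKM + 0.5, with HSC and HPC side by side. Points are libraries, lines are group means and bars are ± SD. Vcam1, Cd163 and the C1q genes climb with age, and Cd68 of HSC peaks at P0, at 104 to 146 RPKM.

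The scavenger receptor Cd163 was close to absent from fetal HSC, at 0.0129, 0.0279, 0.0776 and 0 RPKM at E16, and stood at 2.29, 2.49, 3.13 and 3.65 in Adult. No Adult library came near the E16 range, and all 4 E16 libraries together held 7 reads. Cd163 rose by 2.67 ± 0.26 (limma adjusted p = 9.22e-09), and by 6.60 on the recovered reads. Cd5l went from 0.0285, 0.676, 0.642 and 1.64 RPKM at E16 to 3.41, 10.2, 2.8 and 2.5 in Adult. Its groups did not overlap, but they were wide, and the change of 2.03 ± 0.588 (limma adjusted p = 0.0121) missed the threshold without E16 replicate 1 (adjusted p = 0.0572) or without Adult replicate 2 (adjusted p = 0.0635). With edgeR on the recovered reads its adjusted p was 0.166, and with a pseudocount of 0.1 it was 0.062.

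All 3 chains of C1q rose in HSC. C1qb was the most abundant, at 0.0534, 1.32, 2.0 and 0.971 RPKM at E16 and 31.2, 26.4, 12.7 and 9.11 in Adult, a gain of 3.71 ± 0.516 (limma adjusted p = 5.05e-06). C1qa was 0, 0.301, 0.335 and 0.156 at E16 and 4.68, 4.17, 2.06 and 1.31 in Adult, a gain of 2.25 ± 0.371 (limma adjusted p = 4.13e-05). For both genes the lowest Adult library exceeded the highest fetal one. C1qc, at 0, 0.227, 0 and 0.252 RPKM at E16 and 2.19, 1.24, 1.48 and 1.33 in Adult, gained 1.74 ± 0.445 (limma adjusted p = 0.00462). Adgre1, at 0.591, 0.405, 0.699 and 0.301 RPKM at E16 and 1.06, 2.31, 1.29 and 2.0 in Adult, had a difference of 1.10 ± 0.493 that did not pass (limma adjusted p = 0.109). Its groups were apart in all 8 libraries. With only these groups in the fit its limma adjusted p was 0.0134, while edgeR on recovered reads gave an adjusted p of 0.234.

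Cd68 stood apart from the other members in both level and direction. It was 41.8, 55.7, 62.1 and 52.9 RPKM in E16 HSC and 31.5, 42.5, 26.9 and 28.0 in Adult, overlapping in 1 library on each side, and fell by 0.72 ± 0.155 (limma adjusted p = 0.000969). Y-linked reads exceeded 100 in 4 of 4 E16 and 0 of 4 Adult HSC libraries. With the Y-linked level as a covariate Cd68 was at -0.55 (limma adjusted p = 0.109) and C1qc at 1.06 (adjusted p = 0.294). The other 5 calls stayed under the threshold, with Cd5l moved from 2.025 to 3.75. Adgre1, not called before, was at 0.94 (limma adjusted p = 0.443). Of the HSC ages, only E18 (2 of 3) and P14 (2 of 4) held libraries on both sides of 100 Y-linked reads. This fit thus cannot separate the Y-linked level from age between E16 and Adult, where the split is complete. The codes of the HSC libraries share a prefix within E14, E16 and E18, another within P7 and P14, and yet another within P0 and Adult, and what the prefix stands for was not stated. Age and prefix cannot be told apart between E16 and Adult, or between any other ages of different prefix.

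Within the prefix that P0 and Adult share, 4 members changed (limma, background 21%). Vcam1 was 1.69, 0.656, 2.98 and 0.0866 RPKM at P0, below every Adult library, and rose by 3.02 ± 0.454 (limma adjusted p = 1.69e-05). Cd163 was 0.368, 0.564, 0.217 and 0.105 at P0, again below all Adult libraries, and rose by 2.09 ± 0.26 (limma adjusted p = 9.83e-07). Cd68 was 115, 109, 146 and 104 RPKM at P0, above all Adult libraries, and fell by 1.84 ± 0.155 (limma adjusted p = 1.04e-09). C1qa rose by 1.21 ± 0.371 (limma adjusted p = 0.0203), a call lost without P0 replicate 1 or 4 or Adult replicate 1 or 2, with adjusted p from 0.0547 to 0.0817. It was also lost with a pseudocount of 0.1 (limma adjusted p = 0.0988) and with edgeR on recovered reads (adjusted p = 0.216). Y-linked reads exceeded 100 in 4 of 4 P0 and 0 of 4 Adult libraries, and their part in this comparison was not tested. C1qb, at 4.82 to 10.5 RPKM at P0, had a difference of 1.36 ± 0.516 (limma adjusted p = 0.0611), called without Adult replicate 4 (adjusted p = 0.0352).

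Step by step through the ages, few members moved at once. The steps of HSC from E18 to P0, from P0 to P7 and from P14 to Adult each change the prefix too. Age and prefix cannot be told apart in those steps. From E14 to E16 0 of the 8 were called by limma (0.0523% of genes), 0 had an unadjusted p under 0.05, and edgeR on recovered reads called 0. From E16 to E18 (5.44%) only C1qb was, at 2.7, 8.5 and 4.73 RPKM in E18, a rise of 1.90 ± 0.557 (limma adjusted p = 0.0444). That call was lost without any 1 of 5 libraries (E18 replicates 2 and 3, E16 replicates 1, 2 and 4), with adjusted p from 0.0582 to 0.214. From E18 to P0 (4.75%) Cd68 rose by 0.76 ± 0.168 (limma adjusted p = 0.00778), from 75.5, 64.9 and 69.7 RPKM, without overlap.

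Between P0 and P7 (5.94%) Vcam1 and Cd5l of HSC moved in opposite directions. Vcam1 reached 13.5, 8.43, 8.55 and 2.84 RPKM at P7, with only the lowest library inside the P0 range, a rise of 2.39 ± 0.454 (limma adjusted p = 0.00179). Cd5l went from 2.61, 2.19, 5.96 and 2.6 RPKM at P0 to 0.0343, 0, 1.29 and 0 at P7, without overlap. It fell by 2.34 ± 0.588 (limma adjusted p = 0.0166), a call lost without P7 replicate 1 or 2 or P0 replicate 3 (adjusted p from 0.054 to 0.0674). From P7 to P14 (1.71%) 0 of the 8 were called by limma, 0 had an unadjusted p under 0.05, and edgeR on recovered reads called 0. P14 HSC held Vcam1 at 12.7, 10.2, 7.78 and 8.19 RPKM, with 2 of 4 libraries inside the Adult range, while Cd68, at 70.2, 92.6, 57.7 and 70.8, remained above every Adult library and was lower in Adult by 1.16 ± 0.155 (limma adjusted p = 1.13e-05). From P14 to Adult (5.33%) Cd163 gained 0.96 ± 0.26 (limma adjusted p = 0.0273) and Cd5l 2.06 ± 0.588 (adjusted p = 0.0375). Both calls were lost when single libraries were left out: Cd163 without P14 replicate 3 or 4 or Adult replicate 3 or 4 (adjusted p from 0.0603 to 0.105), and Cd5l without P14 replicate 3 or 4 or Adult replicate 1, 2 or 3 (adjusted p from 0.0537 to 0.14).

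In HPC 7 of the 8 members rose between E16 and Adult and none fell (edgeR, background 27%). Their median log2 change was 4.55, or 4.14 with C1qa and C1qc set to the lower bounds given below. Cd163 was 0.406, 0.154 and 0.117 RPKM at E16 and 10, 7.21, 6.44 and 8.63 in Adult, with no overlap and little spread. It rose by 4.90 ± 0.3 (edgeR quasi-likelihood, adjusted p = 1.16e-10). Vcam1 was 0.193, 0.17 and 0.278 at E16 and 22.3, 12.9, 1.13 and 12.6 in Adult, where replicate 3 was far below the other 3 yet above every E16 library. Vcam1 rose by 5.73 ± 0.816 (edgeR adjusted p = 2.39e-05).

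**Figure D2:**
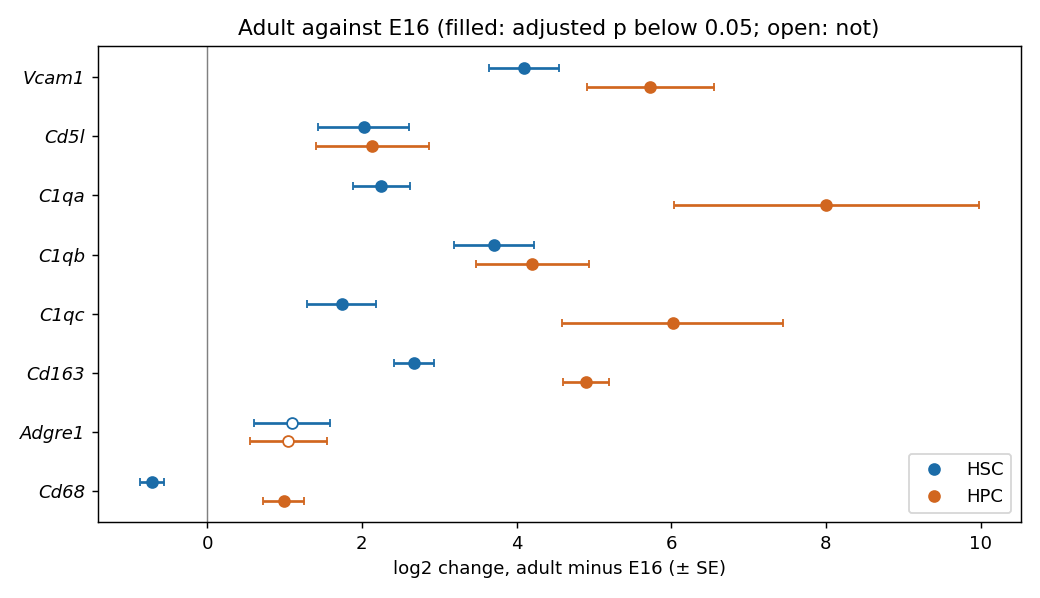
Log2 change from E16 to Adult of each member in HSC and HPC, with bars of ± SE, filled where the adjusted p was below 0.05. HSC values come from limma on log2(RPKM + 0.5) and HPC values from edgeR on counts, so sizes are not on one scale. Cd68 lies left of 0 in HSC, at -0.72, and right of it in HPC, at 0.99, and Adgre1 is open in both.

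The C1q genes followed the same course in HPC. C1qb was 0.301, 0.795 and 0.965 RPKM at E16 and 14.9, 19.6, 2.6 and 16.3 in Adult, without overlap, a rise of 4.20 ± 0.729 (edgeR adjusted p = 0.000213). C1qa had no read in the 3 E16 libraries and 142 reads in the Adult ones, at 2.25, 3.84, 0.381 and 1.13 RPKM (edgeR adjusted p = 0.00528). Against a floor of 3 reads over the E16 group its pooled level was at least 31.3-fold higher in Adult (1.87 against 0.0598 RPKM). C1qc had 1 read at E16 and 144 in Adult, at 1.32, 1.11, 0.381 and 1.24 RPKM, a ratio of 95.3 with a 95% counting interval from 16.8 to 3790 (edgeR adjusted p = 0.00365).

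Cd5l of HPC was 0.023, 1.16 and 1.39 RPKM at E16 and 4.86, 5.71, 0.889 and 4.6 in Adult, overlapping through Adult replicate 3. Its rise of 2.14 ± 0.73 (edgeR adjusted p = 0.0342) was lost without Adult replicate 1, 2 or 4 or E16 replicate 1 or 2 (adjusted p from 0.0529 to 0.0921). Cd68 was 9.08, 20.8 and 26.2 RPKM at E16 and 31.4, 49.3, 35.0 and 46.1 in Adult, with no overlap, and rose by 0.99 ± 0.266 (edgeR adjusted p = 0.00906). Without E16 replicate 1 its adjusted p was 0.051. Adgre1, at 0.331, 1.42 and 0.744 RPKM at E16 and 3.35, 1.71, 0.558 and 2.15 in Adult, overlapped and was not called (1.05 ± 0.499, edgeR adjusted p = 0.124), but was called without Adult replicate 3 (adjusted p = 0.0369) or E16 replicate 2 (adjusted p = 0.0344). Adult replicate 3 of HPC was the lowest of its group for Vcam1, Cd5l, Adgre1, Cd163 and the C1q genes, and second lowest for Cd68. Each HPC age also had its own library code, so age and code cannot be told apart.

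Among the steps, Cd163 of HPC moved most often. It was 0.524, 0.5, 0.658 and 0.338 RPKM at P0, 3.2, 2.63, 3.13 and 2.7 at P7, and 4.12, 3.67, 4.16, 4.82 and 4.96 at P14, with no overlap between successive ages from P0 on. The step from P0 to P7 was 2.47 ± 0.239 (edgeR adjusted p = 2.04e-06, background 1.5%). From P7 to P14 (9.84%) it gained 0.70 ± 0.204 (edgeR adjusted p = 0.0339), and from P14 to Adult (28.9%) 0.66 ± 0.198 (adjusted p = 0.0166), the first lost without any 1 P7 library or P14 replicate 4 (adjusted p from 0.0527 to 0.0934) and the second without Adult replicate 1 (adjusted p = 0.08). From E16 to P0 (3.27%) it gained 1.07 (edgeR adjusted p = 0.049), lost without any 1 of 5 libraries: E16 replicates 2 and 3 and P0 replicates 1, 2 and 3.

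Cd5l of HPC dipped at P7, as it did in HSC. It was 2.16, 1.86, 1.51 and 1.05 RPKM at P0, 0, 0.101, 0.159 and 0.0267 at P7, and 0.191, 0.348, 0.75, 0.225 and 0.743 at P14. Neither step overlapped. Cd5l fell by 4.53 ± 0.853 from P0 to P7 (edgeR adjusted p = 0.00556), on 10 reads in all at P7. The rise of 2.72 ± 0.868 to P14 (edgeR adjusted p = 0.0497) was lost without any 1 P7 library or P14 replicate 2, 3 or 5 (adjusted p from 0.0582 to 0.149), and that of 2.93 ± 0.623 from P14 to Adult held at adjusted p = 0.00189. Cd68 rose by 0.89 ± 0.231 from P7 to P14 (edgeR adjusted p = 0.0199), from 20.3, 22.2, 20.8 and 27.1 RPKM to 47.5, 34.2, 42.9, 34.6 and 31.3, without overlap. That call was lost without P7 replicate 1 (adjusted p = 0.0692) or 3 (adjusted p = 0.0583). Neutrophil markers summed to 15.9 to 133 RPKM in P7, 305 to 3100 in P14 and 32.3 to 82.2 in Adult HPC. Progenitor markers summed to 1200 to 1400, 1510 to 5350 and 1070 to 1300. Y-linked reads exceeded 100 in 4 of 4 P7, 1 of 5 P14 and 3 of 4 Adult HPC libraries. The part of these differences in the steps of the members to and from P14 was not tested. Vcam1 and C1qb of HPC were not called by edgeR at any single step in the fit of all ages. DESeq2 called both from E16 to P0 (adjusted p = 0.0385 and 0.0219), as did edgeR with only the 2 groups (adjusted p = 0.0449 and 0.049). With the replicate block edgeR called C1qb from P14 to Adult (adjusted p = 0.0496), and from P14 to Adult edgeR called both when Adult replicate 3 was left out (adjusted p = 0.0322 and 0.0217).

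Set side by side on the RPKM scale, Cd68 was higher in HSC at every shared age before Adult, and Cd163 was higher in HPC from P7 on. At each shared age HSC and HPC libraries had different codes, and HSC values were deposited as RPKM but HPC values as counts. Cell type and library set thus cannot be told apart in these comparisons or in the difference of their Adult minus E16 changes. Cd68 was higher in HSC at E16 by 1.52 ± 0.228 (limma adjusted p = 3.67e-06), where it was the 1 member of 8 called (23.4% of genes). The difference was 1.73 ± 0.211 at P0 (limma adjusted p = 2.32e-08, background 39%) and 1.92 ± 0.211 at P7 (adjusted p = 2.55e-09, background 41.7%). It was 0.72 ± 0.2 at P14 (limma adjusted p = 0.0043, background 37.6%) and did not pass in Adult, at -0.30 ± 0.211 (adjusted p = 0.309, background 28.8%). At E16, P0, P7 and P14 no HSC library of Cd68 fell within the HPC range. The difference in its Adult minus E16 change between the cell types was itself called, at -1.81 ± 0.311 (limma adjusted p = 0.000166), while 4.15% of genes and no other member were. Cd163 was at -0.85 ± 0.284 there (limma adjusted p = 0.0821), and was called without HSC Adult replicate 4 (adjusted p = 0.0487) or HPC E16 replicate 1 (adjusted p = 0.0478).

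Cd163 was lower in HSC at P7 by 1.39 ± 0.193 log2 units (limma adjusted p = 3.02e-07), at P14 by 1.65 ± 0.183 (adjusted p = 2.12e-09) and in Adult by 1.31 ± 0.193 (adjusted p = 1.49e-06), with no overlap at any of these ages. At E16 its difference was -0.45 ± 0.209 (limma adjusted p = 0.111) with a pseudocount of 0.5, and it was called with 0.1 (adjusted p = 0.00374) and with edgeR on reads (adjusted p = 0.000144). C1qc was higher in HSC at P0, by 1.23 ± 0.408 (limma adjusted p = 0.0157), lost without HSC replicate 2 (adjusted p = 0.128). Vcam1 was higher in HSC at P7, by 1.47 ± 0.543 (limma adjusted p = 0.0289), lost without any 1 of HSC replicates 1 to 3 or HPC replicates 1 to 3 (adjusted p from 0.0599 to 0.104). C1qa, C1qb, Cd5l and Adgre1 were not called between the cell types at any age, and for C1qb the Adult difference was 0.71 ± 0.534 (limma adjusted p = 0.34).

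Ordered by mean log2 level over the 12 age groups, Vcam1 was highest in Adult HSC (11.8 ± 2.36 RPKM, mean ± SD), followed by P14 HSC (9.72 ± 2.25) and Adult HPC (12.2 ± 8.66). P7 HSC (8.33 ± 4.36) and P14 HPC (6.14 ± 3.47) followed. P7 HPC (2.45 ± 1.44), P0 HSC (1.35 ± 1.27), P0 HPC (1.02 ± 0.537) and E18 HSC (0.764 ± 1.06) came next, and E16 HPC, E16 HSC and E14 HSC were all at or under 0.462. Every pair of neighbours in this order overlapped. For Cd163 the order was Adult HPC (8.07 ± 1.57), P14 HPC (4.35 ± 0.535), P7 HPC (2.92 ± 0.291), Adult HSC (2.89 ± 0.621), P14 HSC (1.26 ± 0.319), P7 HSC (0.859 ± 0.315), P0 HPC (0.505 ± 0.131) and P0 HSC (0.314 ± 0.199). Adult HPC was clear of P14 HPC, P14 HPC of P7 HPC, and Adult HSC of P14 HSC, and all other neighbours overlapped. For Cd68 the order ran from P0 HSC (118 ± 18.9) through P7 (89.9 ± 11.6), P14 (72.8, from 57.7 to 92.6), E18 (70.0 ± 5.31), E16 (53.1 ± 8.48) and E14 HSC (45.7 ± 4.28) to Adult HPC (40.5 ± 8.6). P14 HPC (38.1 ± 6.8), P0 HPC (33.1 ± 4.47), Adult HSC (32.2 ± 7.13), P7 HPC (22.6 ± 3.11) and E16 HPC (18.7 ± 8.75) closed it. P0 HSC was clear of P7 HSC and E18 HSC of E16 HSC, and all other neighbours overlapped.

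C1qb ran from Adult HSC (19.9 ± 10.6) and Adult HPC (13.4 ± 7.43) through P14 HSC (7.88 ± 2.98), P0 HSC (6.95 ± 2.47) and E18 HSC (5.31 ± 2.94) to P14 HPC (5.23 ± 3.1). P7 HSC (3.78 ± 1.96), P0 HPC (2.91 ± 0.759), P7 HPC (3.25 ± 2.6), E16 HSC (1.09 ± 0.81), E16 HPC (0.687 ± 0.345) and E14 HSC (0.637 ± 1.1) came last. C1qa and C1qc were also highest in Adult HSC, at 3.05 ± 1.62 and 1.56 ± 0.432 RPKM. C1qa had no read in E16 HPC, and C1qc none in E14 HSC. Neighbours overlapped throughout for all 3 chains. Cd5l was highest in Adult HSC (4.73 ± 3.67) and Adult HPC (4.01 ± 2.14), and lowest in P7 HPC (0.0717 ± 0.0722), and of its neighbours P0 HSC alone was clear of P0 HPC. Adgre1 ran from 1.94 ± 1.15 in Adult HPC to 0.323 ± 0.337 in E14 HSC, and every pair of neighbours overlapped. C1qb exceeded C1qa and C1qc per length in the mean of every group, although each chain of C1q comes from its own gene.

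Other genes of macrophages moved alongside the members between E16 and Adult. Of 18 further tissue macrophage genes, 12 were tested in HSC, and 9 rose and 1 fell. They included Hmox1, which degrades heme (2.82 ± 0.259, limma adjusted p = 3.08e-09), Fcna, a lectin of complement (4.06 ± 0.443, adjusted p = 7.29e-08), and Slc40a1, the iron exporter (2.10 ± 0.379, adjusted p = 0.000128). In HPC, 10 of 16 tested rose and none fell, among them Hmox1 (3.04 ± 0.33, edgeR adjusted p = 7.33e-07), Spic, the transcription factor of red pulp macrophages (3.24 ± 0.483, adjusted p = 4.15e-05), and Slc40a1 (2.50 ± 0.452, adjusted p = 0.000322). The summed level of the 18 genes was 165 to 187 RPKM in E16 and 241 to 270 in Adult HSC, and 13.7 to 74.4 in E16 and 45.7 to 96.3 in Adult HPC. Clec4f and Vsig4, which mark liver macrophages, had group means of at most 0.0815 and 0.176 RPKM at these ages, and were chosen after their values were seen.

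Genes shared with monocytes went both ways. In HSC 3 of 9 rose, including the protease gene Ctss (2.93 ± 0.384, limma adjusted p = 2.2e-06), and 2 fell, Tyrobp (-1.94 ± 0.226, adjusted p = 2.37e-07) and Itgam (-1.38 ± 0.28, adjusted p = 0.000496). In HPC 4 of 12 rose, including Ctss (1.82 ± 0.281, edgeR adjusted p = 6.09e-05) and Itgam (1.01 ± 0.223, adjusted p = 0.00209), while Csf1r, the growth factor receptor on which macrophages depend, was 1 of 2 that fell (-1.37 ± 0.331, adjusted p = 0.00429). Their summed level was 389 to 429 RPKM in E16 and 405 to 512 in Adult HSC, and 319 to 598 and 529 to 665 in HPC. Whether macrophages in the sort, or macrophage RNA carried by the sorted cells, account for any of these values was not tested.

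Of the complement genes outside C1q, 1 of 8 tested rose in HSC, the protease gene C1ra (2.01 ± 0.242, limma adjusted p = 3.78e-07), and 2 fell, Cd93 (-0.72 ± 0.124, adjusted p = 6.73e-05) and Cfp (-0.97 ± 0.196, adjusted p = 0.000508). In HPC 3 of 13 rose, with C1ra at 2.95 ± 0.324 (edgeR adjusted p = 8.42e-07) and C4b at 7.23 ± 1.39 (adjusted p = 0.000776), and 3 fell. Among partners of Vcam1 and other adhesion genes 0 of 7 were called by limma in HSC, where 3 had an unadjusted p under 0.05, while in HPC 3 of 7 rose, among them Itgb7 (1.17 ± 0.272, edgeR adjusted p = 0.00314), and 1 fell. Markers of endothelial cells, which also make Vcam1, fell in 5 of 7 tested in HSC and rose in none, Cdh5 at -2.30 ± 0.351 (limma adjusted p = 1.4e-05). Their summed level was 129 to 141 RPKM at E16 and 84.4 to 115 in Adult. Whether these marker reads came from endothelial cells or from the HSC themselves was not tested. In HPC 4 of 10 fell and 2 rose, Pecam1 (0.86 ± 0.165, edgeR adjusted p = 0.000556) and Stab2 (2.10 ± 0.603, adjusted p = 0.0134), with sums of 77.8 to 128 RPKM at E16 and 94.0 to 109 in Adult. Of the stroma markers, 1 of 3 tested rose in each cell type, the pericyte receptor gene Pdgfrb, by 1.98 ± 0.324 in HSC (limma adjusted p = 3.94e-05) and 0.996 ± 0.313 in HPC (edgeR adjusted p = 0.0224). Their sum went from 0.67 to 0.892 RPKM at E16 to 2.88 to 4.01 in Adult HSC, and from 3.7 to 8.38 to 8.73 to 16.7 in HPC. The part of these cells in the Vcam1 values was not tested. Of 6 transcription factor genes of the macrophage lineage tested in HSC, 3 fell and none rose, including Spi1, which encodes PU.1 (-1.73 ± 0.233, limma adjusted p = 2.41e-06), and Id3 (-6.44 ± 0.439, adjusted p = 3.47e-11). In HPC 1 of 8 rose, Cebpa (1.55 ± 0.431, edgeR adjusted p = 0.011), and 1 fell, Id3 (-5.98 ± 0.302, adjusted p = 3.16e-12). Markers of other cells moved as well. Nkg7 of T and NK cells rose by 2.20 ± 0.194 in HSC (limma adjusted p = 1.39e-09) and 2.39 ± 0.275 in HPC (edgeR adjusted p = 1.59e-06), and the sum of its list was 13.8 to 31.0 RPKM in E16 and 73.7 to 95.1 in Adult HSC, and 89.5 to 103 and 490 to 608 in HPC. All 4 progenitor markers fell in HSC, Mpo by 4.64 ± 0.673 (limma adjusted p = 1.74e-05), and 2 of 3 hepatocyte markers rose, Afp (1.41 ± 0.263, adjusted p = 0.000188) and Trf (0.64 ± 0.186, adjusted p = 0.0123). Progenitor markers summed to 328 to 436 RPKM in E16 and 146 to 201 in Adult HSC, and hepatocyte markers to 5.72 to 6.82 and 10.3 to 17.7. Their part in the results of the members was not tested.

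Over the means of the 12 age groups, C1qa, C1qb and C1qc had the most similar patterns among the members, with Pearson r of 0.879 to 0.929. Vcam1 was closest to C1qa (r = 0.865) and Cd163 (0.81), while Cd68 was not close to any (r from -0.283 to 0.373). The points are 12 group means that share ages, and no p is given. Among 11466 genes, those nearest to Vcam1 were H2-T22 (r = 0.955), Ganc (0.953), Pon3 (0.951), Cryab (0.949) and H2-DMb1 (0.944). Nearest to C1qa were Pex11a (r = 0.972), H2-DMb1 (0.969), Ddit3 (0.969), Ninj1 (0.961) and H2-K1 (0.958). Nearest to Cd163 were Insl6 (r = 0.98), B3gnt5 (0.967), Mcoln2 (0.967), Psmb9 (0.965) and Dnajc6 (0.962). Nearest to Cd68 were Pcmtd2 (r = 0.954), Stx5a (0.953), Lbp (0.932), Arpc5 (0.931) and Tgfbi (0.924). The H2 genes have near relatives between which reads can be split.

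Libraries of 1 age that were high in C1qa tended to be high in C1qb too. After the group mean was removed, C1qa was set against each other member over HSC, HPC and P14 genotype libraries, 21 relations in all, with 100000 permutations within groups. In HSC (n = 26) C1qa and C1qb had r = 0.737 (permutation p = 0.00044, adjusted 0.00924) and rho = 0.722 (permutation p = 0.00065, adjusted 0.00682). In HPC (n = 20) C1qa and Vcam1 had r = 0.773 (permutation p = 0.00138, adjusted 0.0145) and rho = 0.812 (permutation p = 0.00026, adjusted 0.00546). C1qa and C1qb of HPC had r = 0.741 (permutation p = 0.00664, adjusted 0.0465) and rho = 0.709 (permutation p = 0.00552, adjusted 0.0329). C1qa and C1qc of HPC passed by rho only (0.729, permutation p = 0.00627, adjusted 0.0329), with r = 0.727 (permutation p = 0.012, adjusted 0.063). Without the 2 libraries farthest from the median of C1qa the r of the 3 relations that passed by r were 0.677, 0.777 and 0.647, and none of the permutation p-values stayed under 0.05 after adjustment (0.089, 0.0936 and 0.169). In HSC, Vcam1 (r = -0.035, permutation p = 0.853, adjusted 0.896, n = 26) and Cd68 (r = -0.006, adjusted 0.981) showed no such relation to C1qa.

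**Figure D3:**
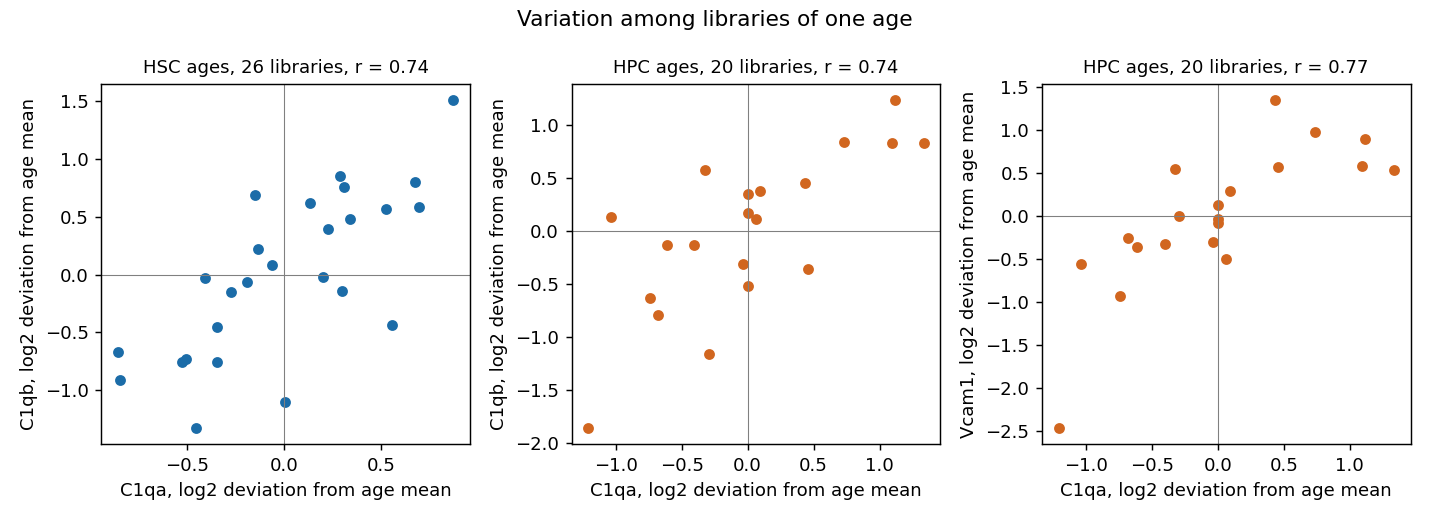
Deviation of each library from its age group's mean log2(RPKM + 0.5), C1qa on the horizontal axis and C1qb or Vcam1 on the vertical axis. Each point is 1 library of HSC (26) or HPC (20). C1qb and C1qa rise together in both cell types, at r = 0.737 and 0.741, and Vcam1 with C1qa in HPC at 0.773.

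At P0, type I interferon signalling was addressed by setting cells labelled Ifnar ko against wild type. In HSC each genotype had its own letter in the library codes, so genotype and code cannot be told apart. Wild type HSC replicates 1 to 3 differed less among themselves than from replicates 4 and 5. The chi-square per gene between read numbers of 2 libraries was 16.8 to 20.9 against 75.1 to 115. Whether replicates 1 to 3 share a source was not tested. Whole-gene reads did not check the labels: Ifnar1 was 9.88 to 11.9 RPKM in the HSC labelled ko and 8.69 to 12.7 in wild type, and 13.3 to 15 and 9.16 to 13.5 in HPC, and the labels do not say which part of which gene was deleted. In HSC labelled ko 3 of the 8 members were lower and none higher (edgeR, background 1.14%), with a median log2 difference of -2.28 over the 8. Vcam1 was 2.07, 1.28, 1.8, 0.521 and 1.41 RPKM in wild type and 0.306, 0.28, 0.395 and 0.161 in the ko libraries. No library crossed over, though wild type replicate 4 came close. Vcam1 fell by 2.29 ± 0.373 (edgeR adjusted p = 0.00464), and the call held without any 1 library (adjusted p up to 0.0266).

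Cd5l of HSC was 1.8, 2.03, 1.54, 0.429 and 1.75 RPKM in wild type and 0.274, 0.339, 0.353 and 0.172 in ko, again without overlap, and fell by 2.38 ± 0.417 (edgeR adjusted p = 0.00859). C1qb was 10.6, 4.91, 8.27, 1.94 and 4.57 in wild type and 1.89, 0.635, 0.661 and 1.63 in ko. Wild type replicate 4 was just above the highest ko library, and the fall of 2.31 ± 0.462 (edgeR adjusted p = 0.0229) was lost without wild type replicate 1 (adjusted p = 0.0527) or 3 (adjusted p = 0.0627) or ko replicate 2 (adjusted p = 0.119) or 3 (adjusted p = 0.0901). C1qa was 0.83, 0.467, 1.66, 0.0862 and 0.416 RPKM in wild type and 0.146, 0.0415, 0.0461 and 0.0841 in ko, overlapping through wild type replicate 4. Its difference of -3.06 was not called (edgeR adjusted p = 0.0976), but was with DESeq2 (adjusted p = 0.00575), without a filter on low counts (edgeR adjusted p = 0.0485) and without that library (adjusted p = 0.0146).

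**Figure D4:**
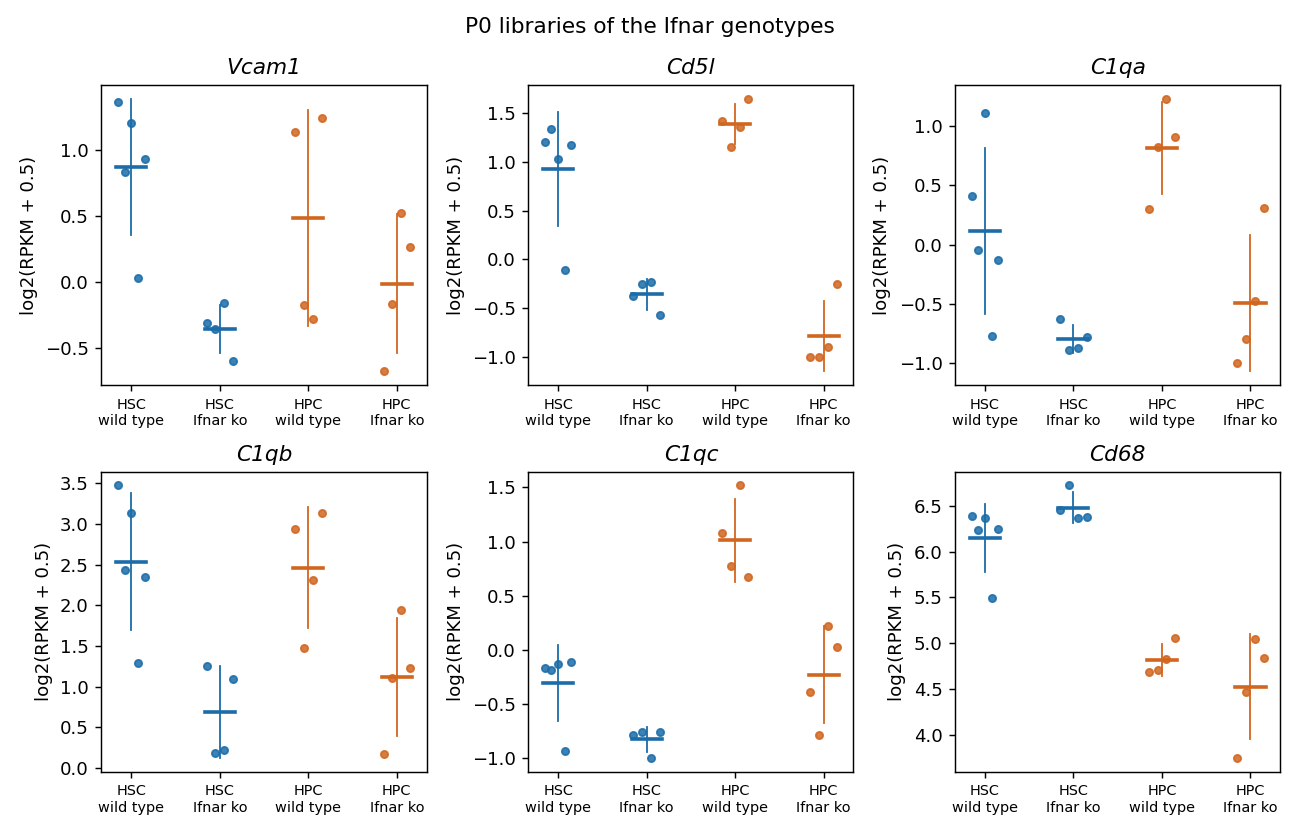
Log2(RPKM + 0.5) of 6 members in P0 libraries of HSC and HPC by labelled Ifnar genotype. Points are libraries, lines are means and bars are ± SD. Vcam1, Cd5l and C1qb are lower in HSC labelled ko without overlap, while Cd68 is not.

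Cd163, Cd68, C1qc and Adgre1 were not called in P0 HSC. Cd163 was 0.135 to 0.212 RPKM in wild type and 0.164 to 0.18 in ko (log2 difference 0.09, edgeR adjusted p = 0.952). Cd68 was 44.6 to 83.1 and 81.7 to 105 RPKM (0.33, edgeR adjusted p = 0.579), with wild type replicate 4 again lowest. C1qc (-2.26, edgeR adjusted p = 0.381) and Adgre1 (-1.50, adjusted p = 0.603) were at most 0.426 and 1.22 RPKM in any library.

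In P0 HPC labelled ko Cd5l and 2 chains of C1q were lower and no member higher, 3 of 7 tested (edgeR, background 10.4%), and the filter on low counts left out Adgre1. Y-linked reads exceeded 100 in 4 of 4 ko and 2 of 4 wild type HPC libraries, and their part was not tested. Cd5l was 2.17, 1.72, 2.06 and 2.63 RPKM in wild type and 0, 0, 0.0373 and 0.34 in ko, where all 4 libraries held 10 reads. The groups were well apart, and Cd5l fell by 4.48 ± 0.732 (edgeR adjusted p = 0.00205), a call that held without any 1 library. C1qc was 1.61, 1.21, 2.37 and 1.09 RPKM in wild type and 0.266, 0.081, 0.668 and 0.518 in ko, without overlap, and fell by 2.08 ± 0.525 (edgeR adjusted p = 0.0248). C1qb, at 7.13, 2.29, 4.47 and 8.24 against 0.629, 1.65, 3.35 and 1.84 RPKM, overlapped in 1 library on each side and fell by 1.62 ± 0.482 (edgeR adjusted p = 0.0493). The call of C1qc was lost without wild type replicate 1 or 3 or ko replicate 1 or 2 (adjusted p from 0.0528 to 0.0903), and that of C1qb without wild type replicate 1, 3 or 4 or ko replicate 1, 2 or 4 (adjusted p from 0.0815 to 0.147).

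C1qa of HPC was 0.731, 1.27, 1.84 and 1.37 RPKM in wild type and 0, 0.0752, 0.219 and 0.74 in ko, with a difference of -2.34 (edgeR adjusted p = 0.0515) that DESeq2 called (adjusted p = 0.0372), as did edgeR without ko replicate 4 (adjusted p = 0.0103). Vcam1, which was lower in HSC, was 1.7, 0.389, 0.325 and 1.86 RPKM in wild type HPC and 0.126, 0.391, 0.938 and 0.702 in ko, overlapping widely (-1.05, edgeR adjusted p = 0.322). Whether the Vcam1 difference itself differed between the cell types was not tested. Cd163 (-0.26) and Cd68 (-0.29) of HPC were not called by edgeR. Adgre1 was 1.71, 0.671, 0.636 and 0.188 RPKM in wild type HPC and 0, 0.217, 0.187 and 0.142 in ko, overlapping through wild type replicate 4. It was called lower in the fits without that filter, at -2.59 ± 0.669 by edgeR (adjusted p = 0.0205) and -2.62 ± 0.761 by DESeq2 (adjusted p = 0.00766).

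Markers of other cells moved with the label too. In HSC 2 of 15 other tissue macrophage genes were lower, Clec4f of liver macrophages (-2.55 ± 0.466, edgeR adjusted p = 0.0118) and Slc40a1 (-1.31 ± 0.29, adjusted p = 0.0476), and none was higher. There edgeR called 0 of 11 monocyte genes, 0 of 10 HSC markers and 0 of 4 progenitor markers, of which 4, 2 and 1 had an unadjusted p under 0.05. The full list of 18 tissue macrophage genes summed to 90.8 to 111 RPKM in ko and 89.2 to 133 in wild type, and the monocyte list summed to 296 to 334 and 249 to 281. In HPC 3 of 12 tissue macrophage genes were lower, including Clec4f (-3.05 ± 0.657, edgeR adjusted p = 0.0112) and Hmox1 (-1.56 ± 0.219, adjusted p = 0.000679). Of the same list 1 was higher, Apoe (0.90 ± 0.186, edgeR adjusted p = 0.00868). The full list of 18 summed to 139 to 264 RPKM in ko and 111 to 134 in wild type HPC, higher in ko without overlap. There 7 of 12 monocyte genes, 3 of 4 progenitor markers and 3 of 3 B cell markers were lower, while 4 of 6 erythroid and 6 of 10 HSC markers were higher and 1 HSC marker, Ly6a, was lower (-1.59 ± 0.318, edgeR adjusted p = 0.00751). Of 8 endothelial markers, 2 were higher, Tek (0.97 ± 0.137, edgeR adjusted p = 0.000679) and Eng (0.43 ± 0.109, adjusted p = 0.0265), as was Col1a2 of 2 stroma markers tested (2.49 ± 0.425, adjusted p = 0.00276). Among 8 macrophage transcription factor genes Spi1 was higher (1.16 ± 0.232, edgeR adjusted p = 0.00753), and Irf8 (-2.02 ± 0.185, adjusted p = 1.74e-05) and Cebpa (-1.24 ± 0.355, adjusted p = 0.0419) were lower. The monocyte list summed to 238 to 436 RPKM in ko and 501 to 670 in wild type HPC. The part of these values in the C1q and Cd5l results was not tested. The genes named here beside the members were chosen after their P0 values were seen.

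At P14, HPC were compared across both loci. Each genotype group had its own letter in the library codes, so genotype and code cannot be told apart. Y-linked reads exceeded 100 in 2 of 4 libraries of each Ifnar +/- group, 3 of 4 of Ifnar -/-, Flt3 +/+ and 4 of 5 of Ifnar -/-, Flt3 ITD/+. Their part was not tested. Replicate 2 of Ifnar +/-, Flt3 +/+ differed from the other 3 of its group in Flt3 itself (141 RPKM, against 13.4, 13.9 and 20.7). Flt3 was 78.4, 133, 122 and 115 RPKM in Ifnar -/-, Flt3 +/+, 55.8 to 70.4 in Ifnar +/-, Flt3 ITD/+ and 16.1 to 57.7 in Ifnar -/-, Flt3 ITD/+. Replicate 2 was thus nearer to the other Flt3 +/+ group than to its own, and which of these libraries depart from their label was not tested. Leaving it out raised the count of genes called between the Ifnar genotypes in Flt3 +/+ from 766 to 6223. The counts for Flt3 ITD/+ in Ifnar +/- and for the difference between the Ifnar backgrounds rose from 846 to 5804 and from 2 to 5592. Flt3 ITD/+ against Flt3 +/+ changed a single member, Adgre1, on either Ifnar background (edgeR, background 4.84% in Ifnar +/- and 0.962% in Ifnar -/-). Adgre1 was 0.367, 0.416, 0.279 and 0.415 RPKM in Ifnar +/-, Flt3 +/+ and 5.58, 4.28, 4.28 and 5.91 with Flt3 ITD/+. It was 0.57, 0.917, 0.444 and 0.541 in Ifnar -/-, Flt3 +/+ and 4.81, 6.17, 3.15, 2.97 and 4.52 with Flt3 ITD/+. Every ITD library lay above every Flt3 +/+ library.

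Adgre1 rose by 3.69 ± 0.277 in Ifnar +/- (edgeR adjusted p = 8.82e-07, and 4.67e-06 without replicate 2 of Ifnar +/-, Flt3 +/+) and by 2.87 ± 0.26 in Ifnar -/- (adjusted p = 5.01e-06). The difference between the 2 rises, -0.82 ± 0.347, did not pass (edgeR adjusted p = 0.132, background 0.0115%). In the age series Adgre1 of P14 HPC was 1.6, 0.765, 1.67, 2.72 and 1.56 RPKM, in a table made separately. Cd68 lay between 23.3 and 44.6 RPKM over the 4 groups. Cd163 was 2.89 to 3.45 RPKM in Ifnar -/-, Flt3 +/+ and 1.83 to 2.52 in Ifnar -/-, Flt3 ITD/+, ranges that did not overlap (-0.50 ± 0.162, edgeR adjusted p = 0.218). Neither gene was called by edgeR in any of the 5 P14 comparisons. Without replicate 2 of Ifnar +/-, Flt3 +/+, the Cd163 difference between the ITD changes was called (-0.58, edgeR adjusted p = 0.0318).

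**Figure D5:**
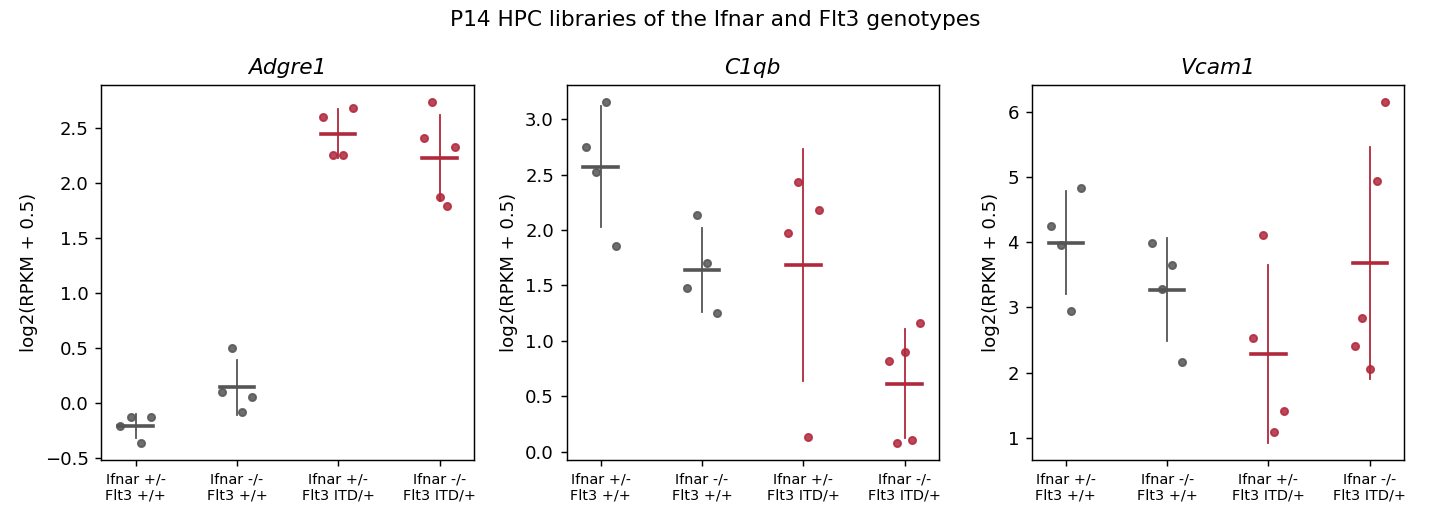
Log2(RPKM + 0.5) of Adgre1, C1qb and Vcam1 in the 17 P14 HPC libraries by labelled genotype. Points are libraries, lines are means and bars are ± SD. Adgre1 is higher in every Flt3 ITD/+ library, C1qb has its lowest mean with Ifnar -/- and Flt3 ITD/+, and Vcam1 is spread in all groups.

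Other genes of the list were not called with Flt3 ITD/+. Cd5l was 0.448, 0.604, 0.341 and 0.0853 RPKM in Ifnar +/-, Flt3 +/+ and 0.0238, 0.0148, 0 and 0.0363 with ITD, apart in all 8 libraries but on 10 reads in the second group (-4.29 ± 1.51, edgeR adjusted p = 0.0877). With only these groups in the fit it was called (adjusted p = 0.0427), and in Ifnar -/- it was called without Flt3 ITD/+ replicate 1 (adjusted p = 0.0408). Vcam1 was 7.17 to 28.1 RPKM in Ifnar +/-, Flt3 +/+ and 5.25, 16.7, 1.63 and 2.17 with ITD, and 4.83, 6.67, 3.64, 30.3 and 70.8 with ITD and Ifnar -/-. Those ranges overlapped, and the ITD difference was -1.52 ± 0.84 (edgeR adjusted p = 0.233). In the same contrast 3 of 12 monocyte genes rose, Csf1r (2.39 ± 0.418, edgeR adjusted p = 0.00369), Cx3cr1 (1.77 ± 0.34, adjusted p = 0.00703) and Mpeg1 (2.99 ± 0.592, adjusted p = 0.00882), along with Irf8 (3.19 ± 0.288, adjusted p = 6.71e-06), and the monocyte list summed to 414 to 529 RPKM against 377 to 608. In Ifnar -/- 0 of 12 were called by edgeR for ITD, and 4 had an unadjusted p under 0.05. Of the tissue macrophage genes Hmox1 alone was called for ITD in Ifnar +/-, and it was lower (-2.11 ± 0.56, edgeR adjusted p = 0.0405). That list summed to 26.7 to 35.4 RPKM with ITD and 31.0 to 47.9 in Flt3 +/+. In Ifnar -/- edgeR called 0 of its 13 tested genes for ITD, and 2 had an unadjusted p under 0.05. Genes named here beside the members were chosen after their values were seen, and their part in the Adgre1 values was not tested.

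Between Ifnar -/- and Ifnar +/- at P14 0 of the 8 members were called by edgeR in Flt3 +/+ (4.39% of genes) and 0 in Flt3 ITD/+ (4.03%), where 3 and 2 had an unadjusted p under 0.05. C1qb was the 1 member that DESeq2 called. It was 6.24, 5.24, 8.4 and 3.12 RPKM in Ifnar +/-, Flt3 +/+ and 2.28, 3.91, 2.75 and 1.88 in Ifnar -/-, Flt3 +/+, overlapping in 1 library on each side (-1.31 ± 0.496, edgeR adjusted p = 0.0961). With Flt3 ITD/+ it was 3.43, 4.9, 0.598 and 4.04 in Ifnar +/- and 1.27, 0.557, 1.36, 0.579 and 1.74 in Ifnar -/-, where replicate 3 of the first group fell among the second (-1.58 ± 0.472, edgeR adjusted p = 0.0716). DESeq2 called C1qb in both (adjusted p = 0.0309 and 0.0147), and edgeR called the second without that replicate (adjusted p = 0.0151). Vcam1 and Cd5l, which were lower in P0 HSC labelled ko, were at -0.96 ± 0.828 and -1.02 ± 1.26 in Flt3 +/+ (edgeR adjusted p = 0.444 and 0.609). The 2 comparisons differ in age, in cell type and in the control genotype, which was wild type at P0 and Ifnar +/- at P14. Of the monocyte genes, edgeR called Tyrobp, Fcer1g and Mpeg1 lower in Ifnar -/-, Flt3 +/+ (adjusted p from 0.0169 to 0.0442). With Flt3 ITD/+ it called Csf1r, Cx3cr1, Ccr2, Fcer1g and Mpeg1 lower (adjusted p from 9.78e-05 to 0.0362), and Irf8 and Cebpa too. No monocyte gene was called higher. These genes were named after their values were seen, and their part was not tested.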

How the data were processed

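RNA-seq libraries of sorted HSC and HPC were sequenced after preparation with Qiagen and Clontech kits, per the labels. Reads were aligned with STAR 3.0.4 and counted with featureCounts 1.4.5, per the submitters' processing notes, and the genome build and annotation are not given in the sources used here. The authors deposited raw read counts per gene for the HPC age libraries and all genotype libraries. The HSC columns of the age table hold RPKM values as the authors deposited them, and 1 column of no listed sample was not used. The values of HSC were whole multiples of what 1 read is worth: with exon lengths from GENCODE M21 for 16610 genes and from the values for 9012, 100% of nonzero values gave whole reads within 1e-06. RPKM of the other libraries were computed with the same lengths.

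HSC ages and HSC against HPC were tested with limma 3.58.1 on log2(TMM-scaled RPKM + 0.5), keeping genes above 1 RPKM in at least 3 libraries. A count test was not used there because the HSC values are RPKM. HPC ages and genotypes were tested with the quasi-likelihood test of edgeR 4.0.16 (TMM, low counts filtered), in R 4.3.3. P-values were adjusted (Benjamini-Hochberg) over all genes of each of 26 comparisons, with a threshold of 0.05. Both procedures were tested on counts simulated with a single spread for all genes, with changes set only in better-read genes. Genes read as thinly as C1qa and C1qc were thus not covered. Alternatives were a pseudocount of 0.1, no filter, no scaling, edgeR on recovered reads, DESeq2 1.42.0 and its size factors, a replicate block, fits of only the 2 groups, a Y-linked covariate, and each library left out. In each list of other genes the 3 called genes with the smallest p were candidates for naming in Adult against E16. The members and lists were chosen with earlier results of these data known.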

Additional observations from a re-analysis of the deposited data

Results flagged for a closer look

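In 14 of 136 combinations of a member and a group of at least 4 libraries, 1 library stood apart from the others by Dixon's criterion, which chance alone meets in about 1 group in 20. All values here are log2(RPKM + 0.5). In Adult HPC, replicate 3 was low for C1qb (1.633) and Cd5l (0.474). In P0 wild type HSC, replicate 4 was low for C1qc (-0.935), Cd5l (-0.106) and Cd68 (5.495), and in P0 HSC labelled Ifnar ko replicate 3 was low for C1qc (-1.0, no read). In P0 HPC, wild type replicate 1 was low for Cd163 (-0.616) and ko replicate 4 high for Cd5l (-0.252). Cd5l was high in HSC replicate 3 at P0 (2.692) and at P7 (0.842), and Vcam1 in HPC replicate 4 at P7 (2.352). At P14, C1qa was high in Ifnar +/-, Flt3 ITD/+ replicate 2 (0.225) and low in Ifnar -/-, Flt3 ITD/+ replicate 2 (-0.824), and Cd5l was high in Ifnar -/-, Flt3 ITD/+ replicate 1 (-0.425).

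The Adult minus E16 change of Cd68 differed between HSC and HPC by -1.812 (limma adjusted p = 0.000166), with a fall in HSC and a rise in HPC.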

How the results depend on the processing

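No call of a member changed direction under any alternative. Counts of members called that moved by more than 1.5 times were as follows, with the range over single libraries left out. For HSC from E16 to E18 the count of 1 became 0 with a pseudocount of 0.1, without the filter, with edgeR on recovered reads and with the replicate block, and was 0 to 1 without 1 library. For P0 to P7 in HSC it was 1 with edgeR on recovered reads and 1 to 2 without 1 library, against 2. For P14 to Adult in HSC it was 1 with a pseudocount of 0.1 or edgeR on recovered reads and 1 to 3 without 1 library, against 3. In HPC, E16 to P0 gave 4 with DESeq2, 0 without the filter, 2 with only the 2 groups and 0 to 1 without 1 library, against 1. P7 to P14 gave 1 with the replicate block and 0 to 3 without 1 library, against 3, and P14 to Adult 1 to 4 against 2. HSC against HPC at E16 gave 2 with a pseudocount of 0.1 or edgeR on recovered reads, at P0 1 to 2 without 1 library, and for the difference of the Adult minus E16 change 1 to 2. P0 HPC labelled ko gave 5 with DESeq2 and 1 to 3 without 1 library. At P14 the Ifnar comparisons gave 1 each with DESeq2, against 0, and 0 to 1 without 1 library in Flt3 ITD/+. Flt3 ITD/+ gave 2 with only the 2 groups in Ifnar +/-, 1 to 2 without 1 library on either background, and 0 to 1 for the difference. Of the 3 relations of C1qa, 0 passed without the 2 farthest libraries. The cause of these changes was not tested.

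Same-numbered libraries had median correlations of -0.012 in HSC, -0.078 in HPC and 0.156 at P14, against 0.003, 0.02 and -0.019 for other pairs. In P0 HSC the medians were 0.092 and -0.078, and in P0 HPC -0.003 and -0.001. Replicate numbers thus did not visibly pair the libraries of the age series or P0 HPC. Whether they did at P14 or in P0 HSC, and what a call lost under the block stands for, was not tested.

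Over all genes, the HSC count from E16 to Adult was 3274, and 1888 with the Y-linked covariate. Fits of only the 2 groups gave 1869 for P0 to Adult (against 2807), 0 for E14 to E16 (7), 140 for E18 to P0 (635) and 409 for P0 to P7 (794). E14 to E16 gave 14 without the filter, 13 without scaling, 3 with edgeR on recovered reads and 4 with the block. Without the filter, E16 to E18 gave 471 (728) and P7 to P14 142 (229). In HPC, E16 to P0 gave 877 with DESeq2 and 205 with only the 2 groups (483), P0 to P7 416 and 645 (222), and P14 to Adult 2665 with only the 2 groups (4262). DESeq2 gave 336 in P0 HSC (185) and 2036 in P0 HPC (1347). At P14, DESeq2, the block and only the 2 groups gave 3097, 1293 and 42 for Ifnar in Flt3 +/+ (766), 1376, 452 and 1368 in Flt3 ITD/+ (704), and 2656, 1524 and 165 for Flt3 ITD/+ in Ifnar +/- (846). In Ifnar -/- DESeq2 gave 428 and only the 2 groups 295 (168), and the difference gave 2408 with DESeq2, 12 without the filter and 0 with the block (2).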
